A study of Sus scrofa with 48 samples.

Results

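Liver RNA of 48 pigs was hybridised to 1-colour arrays, and 10 genes that mark Kupffer cells and other macrophages were followed: CD163, CD68, CSF1R, VSIG4, SIGLEC1, CD5L, C1QA, C1QB, C1QC and CD14. Every array probe that the scanner files named for one of these genes, or whose listed transcript maps to it, was taken. The 10 genes are among 12440 named genes tested, and the rule gave 30 probes among the 60305 on the array. All 30 were among the 45236 probes tested, which had to be well above background on at least 12 arrays. Of these, 29 were well above background on all 48 arrays and the last, a VSIG4 probe, on 47. VSIG4 had 7 probes, CD163 6, CD5L 5, CD14 3, and C1QA, C1QB and SIGLEC1 2 each, whereas C1QC, CD68 and CSF1R were read by 1 probe each.

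The pigs were purebred Large White barrows from a pair of lines selected in opposite directions for residual feed intake (RFI), the feed eaten beyond what growth and fatness predict. Selection had run over several generations, and pigs of the low RFI line are the efficient ones. Through the growing period, 12 pigs of each line received a diet high in fat and fibre and 12 a diet low in both. All were kept in individual pens, and livers were taken after a meal at slaughter. The groups were thus low RFI and high RFI pigs on the high-fat (HF) or the low-fat (LF) diet, and because fat and fibre changed together in the diets they cannot be told apart. The pigs lived in separate pens, so each array stands for 1 animal. Each line is a single selected population, so selection for RFI and chance drift in a line cannot be told apart.

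Kupffer cells are the macrophages that line the liver sinusoids. They clear bacteria, aged red cells and immune complexes from portal blood, and they are a main source of C1q, the recognition molecule that starts the classical complement pathway. VSIG4 binds complement fragments on particles, CD163 takes up haemoglobin bound to haptoglobin, SIGLEC1 is a sialic acid-binding adhesion receptor, and CSF1R is the growth factor receptor on which macrophages depend. CD14 presents bacterial lipopolysaccharide to TLR4, CD68 is a lysosomal glycoprotein, and CD5L is a secreted protein made by tissue macrophages.

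Several of the probes repeat each other, so the sequences that decide how the readings are to be counted are given here. The array carried 8 pairs of probes in which a run of at least 50 bases, on the same strand, was shared with a marker probe. In 2 of these pairs both probes were named for the gene, and in 6 the second probe had no name in the files. C1QA was read by a named probe, by an unnamed one shifted by a few bases, and by a further probe that shares no such run, shown because it passed the test for line:
C1QA O11770: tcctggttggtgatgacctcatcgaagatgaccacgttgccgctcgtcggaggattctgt

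For VSIG4, 1 of the probes had an unnamed partner with 50 bases in common (capitals), and a further probe, shown because it passed the test for line, had none:
VSIG4 A_72_P160701: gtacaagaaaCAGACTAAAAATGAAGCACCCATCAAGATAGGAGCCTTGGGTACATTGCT
VSIG4 copy: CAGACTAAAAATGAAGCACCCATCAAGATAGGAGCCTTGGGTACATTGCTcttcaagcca
VSIG4 A_72_P643751: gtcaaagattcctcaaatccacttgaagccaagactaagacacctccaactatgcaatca

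For CD163, probes A_72_P018171 and A_72_P624895 were the same 60 bases throughout, so that they are repeat spots and not separate evidence (capitals mark the shared bases):
CD163 A_72_P018171: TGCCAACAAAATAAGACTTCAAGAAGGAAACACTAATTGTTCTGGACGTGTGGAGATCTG

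The remaining C1q chains were read by the following probes, of which the last is shown because its orientation is uncertain:
C1QB A_72_P442926: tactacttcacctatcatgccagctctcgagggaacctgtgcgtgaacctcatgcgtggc
C1QC A_72_P403253: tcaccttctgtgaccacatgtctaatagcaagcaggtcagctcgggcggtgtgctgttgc
C1QB O8971: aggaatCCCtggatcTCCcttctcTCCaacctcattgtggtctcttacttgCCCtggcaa

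In C1QB O8971 the capitals mark the complement of glycine codons. Its reverse complement held 4 glycine codons among 20, all 4 in the same register of 3, and C1q has a collagen-like stalk with regularly spaced glycines. C1QA O11770 and VSIG4 O11980 may also lie against the coding strand. The files give no strand for these 3 probes and no transcript was at hand to place them, so their orientation was not tested and their readings are named separately below.

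Values are log2 signals after subtraction of the array median, so they can be compared between pigs for 1 probe but not between probes. For each gene the brightest probe was taken as representative and the others are given by their range. A probe was called differentially expressed (DEP) at P under 0.01 and a fold change (FC) over 1.1, from a limma fit with line, diet and their interaction, and P-BH is the Benjamini-Hochberg value over all tested probes.

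None of the 10 representative probes was a DEP for line. The log2 FC of low RFI against high RFI pigs lay below 0 for 8 of the 10 genes and above 0 for CD5L and CD14, with a median of -0.18, beside a median of 0.01 over all tested probes. Over all 12440 named genes, 5820 lay below 0. Of the 30 probes, 22 had negative values and 3 were DEP, all 3 lower in the low RFI line: VSIG4 A_72_P157646, VSIG4 A_72_P643751 and C1QA O11770. Negative values were found for 21509 of all 45236 tested probes. Across the array, 3.49% of the tested probes were DEP with lower signal in the low RFI line and 3.42% with higher signal. None of the marker probes passed P-BH under 0.05, which 3.93% of all tested probes did in either direction, and the smallest P-BH among the markers was 0.051, for C1QA O11770. At an unadjusted P under 0.05, 9 of the 30 probes were lower in the low RFI line, against 7.4% of all tested probes, and none was higher. The 30 probes share genes, pigs and partly sequence, so their count is a description. The 10 genes were read in the same pigs and several moved together across them, so their count by direction is a description too.

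**Figure D1:**
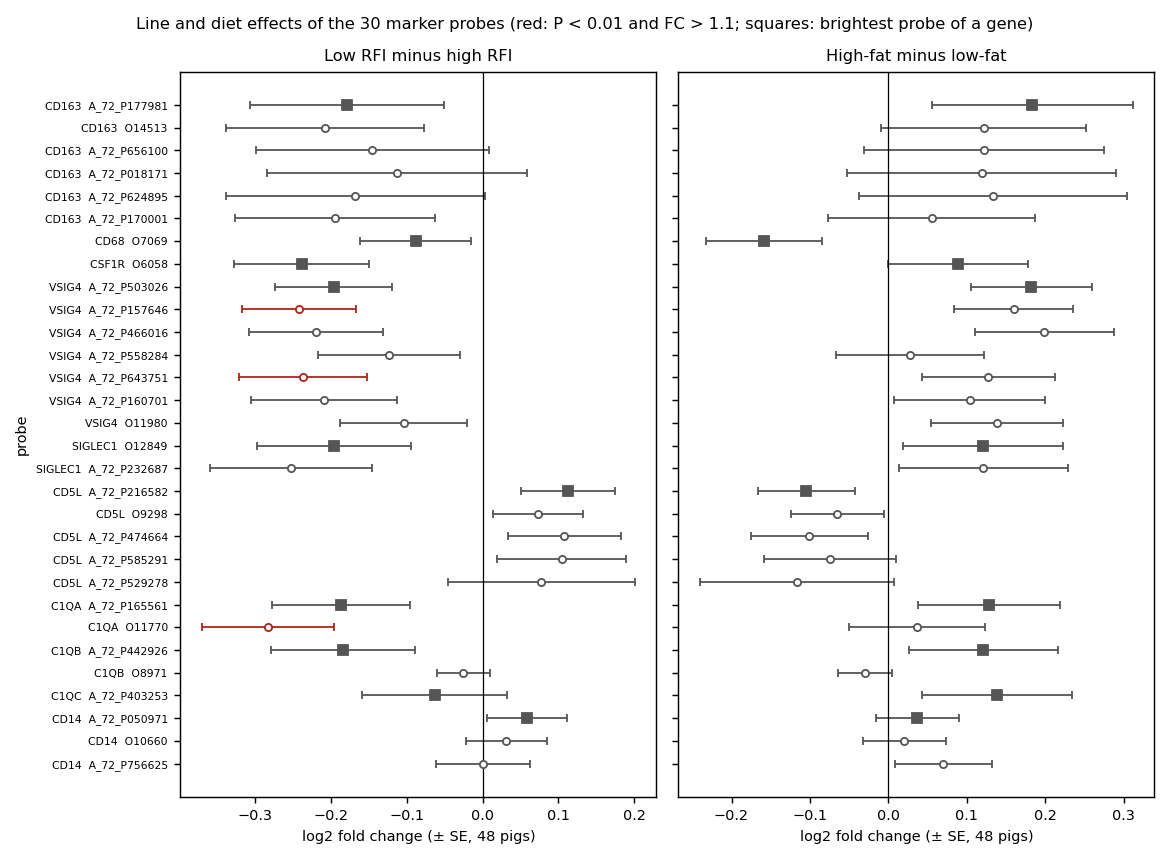
Log2 fold change of each of the 30 marker probes, with its standard error over 48 pigs, for line (left, low RFI minus high RFI) and diet (right, high-fat minus low-fat); squares are the representative probes and red marks the DEP. The 3 red probes are on the left, and the 5 CD5L probes and 3 CD14 probes lie at or right of 0 there while the VSIG4, CD163 and SIGLEC1 probes lie left of 0.

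The complement receptor VSIG4 was the marker with the most DEP. In the low RFI line the representative probe ranged from 3.40 to 4.84 with a median of 4.11, and in the high RFI line from 3.93 to 4.90 with a median of 4.31. The ranges overlapped widely, although 18 of the 24 low RFI pigs lay below the high RFI median. The log2 FC was -0.20 ± 0.08 (SE), a low-to-high ratio of 0.873 (95% interval 0.784 to 0.971), with P = 0.014 and P-BH = 0.17 by limma. All 7 VSIG4 probes had negative values, from -0.24 to -0.10.

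For the sequence of the representative VSIG4 probe, the call depended on which spot was read. Probe A_72_P157646, a DEP with log2 FC -0.24 (P = 0.0025, P-BH = 0.059), has the same 60 bases as the representative probe A_72_P503026, which was no DEP. The pair correlated at r = 0.94 over the 48 pigs with group means removed. The smallest values among the VSIG4 probes were those of A_72_P558284 (-0.12) and of O11980 (-0.10), a probe of uncertain strand.

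CSF1R, read by 1 probe, came closest to a call among the representative probes. Its signal ranged from -1.18 to -0.02 in low RFI pigs (median -0.68) and from -1.18 to 0.15 in high RFI pigs (median -0.49). The lowest pigs of both lines were alike, and 16 of 24 low RFI pigs lay below the high RFI median. The log2 FC was -0.24 ± 0.09, a ratio of 0.848 (95% interval 0.749 to 0.960), with P = 0.0102 and P-BH = 0.14. Its P lay just outside the limit for a DEP. The deposited log2 values lack this probe, so its line value was not checked there.

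The 3 C1q chains are encoded by neighbouring genes in the RefSeq annotation of Sscrofa11.1 and form 1 protein. C1QA ranged from 4.48 to 5.76 in low RFI pigs (median 5.02) and from 4.56 to 5.91 in high RFI pigs (median 5.19). C1QB ranged from 5.12 to 6.55 (median 5.74) in the former and from 5.28 to 6.54 (median 5.95) in the latter. For both chains the lines overlapped over nearly the whole range.

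The log2 FC was -0.19 ± 0.09 for C1QA (P = 0.045) and -0.18 ± 0.09 for C1QB (P = 0.058), with P-BH of 0.33 and 0.37. C1QC differed less, from 3.15 to 4.66 (median 4.05) in low RFI and from 3.28 to 4.66 (median 4.12) in high RFI pigs, with log2 FC -0.06 ± 0.10 (P = 0.51). The unnamed copy of the C1QA probe gave -0.16 (P = 0.072) and followed its partner at r = 0.99. The DEP among the C1q probes was C1QA O11770, of uncertain strand, at -0.28 ± 0.09 (P = 0.0020), and it correlated with the representative C1QA probe at r = 0.63. Of the other probes of uncertain strand, C1QB O8971 correlated with its representative at -0.03 and gave -0.03 (P = 0.47), and VSIG4 O11980 correlated at 0.21.

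The scavenger receptor CD163 varied most between pigs. Over all 48 pigs its signal spanned 4.16 to 6.66, a 5.65-fold range, and the highest pig was of the high RFI line on the LF diet. Low RFI pigs had a median of 4.997 and high RFI pigs of 5.10, and 18 of 24 low RFI pigs lay below the latter. The log2 FC was -0.18 ± 0.13 (P = 0.17), and the 6 CD163 probes ranged from -0.21 to -0.11. Outside the naming rule, 3 further tested probes described as CD163 antigen gave -0.23 to -0.22 and correlated with the representative probe at 0.53 to 0.60. With an SD of 0.46 over pigs, the 95% interval of the ratio ran from 0.739 to 1.06, which includes no difference.

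SIGLEC1 gave a log2 FC of -0.20 ± 0.10 (P = 0.060), with 17 of 24 low RFI pigs below the high RFI median of -0.08. Its signal ran from -1.21 to 0.31 in low RFI and from -0.75 to 0.71 in high RFI pigs. Its second probe gave -0.25 (P = 0.023), and an unnamed probe with the same 60 bases as the second was a DEP at -0.29 (P = 0.0059, P-BH = 0.10). The pair correlated at r = 0.90. The brighter and the second SIGLEC1 probe, which share no sequence, correlated at 0.42.

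CD68, the lysosomal glycoprotein, was dim. Its median raw signal of 35.5 was under the median probe of every array. Low RFI pigs ranged from -2.94 to -2.13 (median -2.60) and high RFI pigs from -3.16 to -1.94 (median -2.45). The log2 FC was -0.09 ± 0.07 (P = 0.24).

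CD5L and CD14 stood on the other side of 0. CD5L ranged from 8.13 to 8.97 (median 8.59) in low RFI pigs and from 8.01 to 8.83 (median 8.51) in high RFI pigs, and 18 of 24 low RFI pigs lay above the high RFI median. Its log2 FC was 0.11 ± 0.06 (P = 0.075), and its 5 probes ranged from 0.07 to 0.11. CD14 ranged from 5.89 to 6.50 in low RFI pigs and from 5.78 to 6.54 in high RFI pigs, with medians of 6.21 and 6.11. Its log2 FC was 0.06 ± 0.05 (P = 0.27) and its 3 probes ranged from 0.00 to 0.06. These were also the markers with the narrowest spread between pigs, with SDs of 0.22 and 0.18. In whole liver, the number of macrophages and the RNA per macrophage cannot be told apart, for these and for all markers. The part of other cells in these values was not tested.

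**Figure D2:**
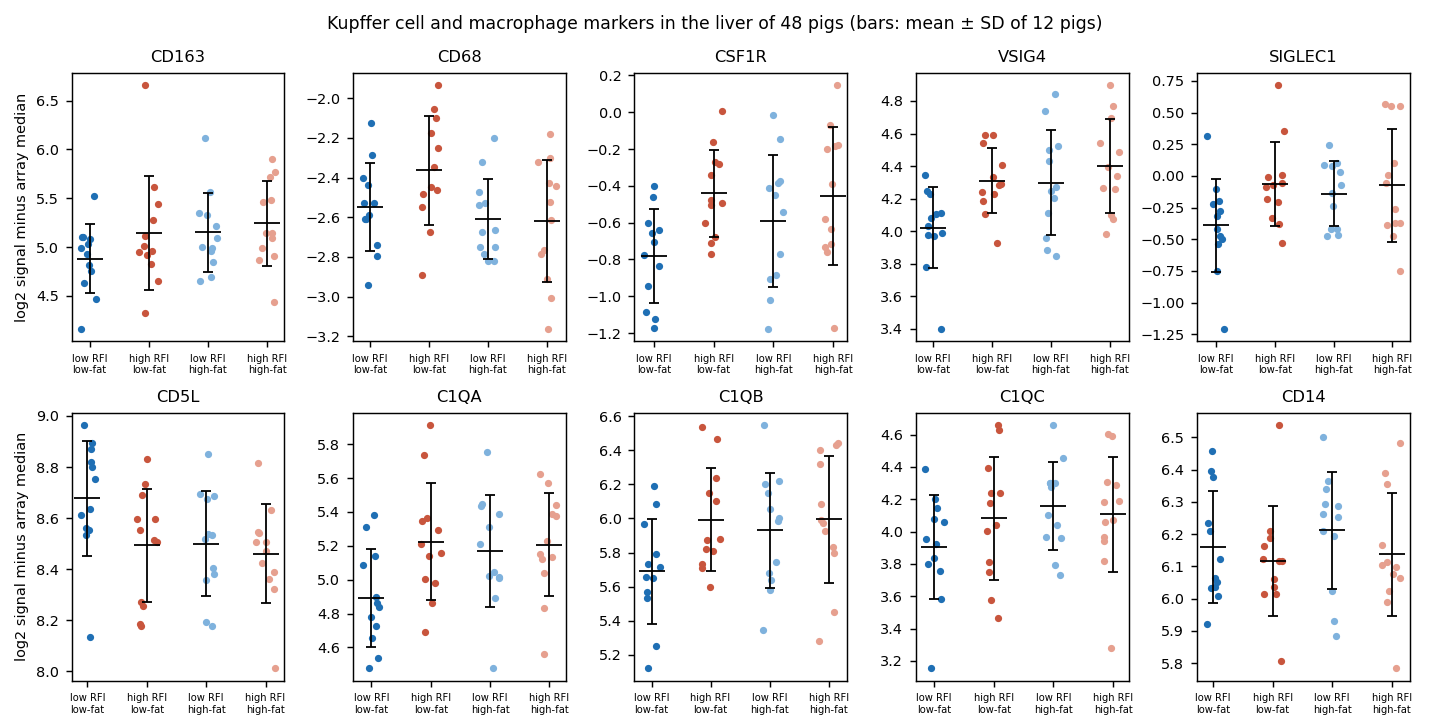
Log2 signal minus the array median of the representative probe of each gene, with 1 point per pig, 12 pigs per group, and bars for mean ± SD. The groups overlap for every gene; low RFI pigs on the low-fat diet have the lowest group mean for CD163, CSF1R, VSIG4, SIGLEC1 and the 3 C1q chains, and the highest for CD5L.

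Within diets, the line difference of the representative probe was the larger on the LF diet for most genes. On the LF diet the median log2 FC over the 10 representative probes was -0.28, and 1 of them was a DEP with lower signal in low RFI pigs, CSF1R, at -0.34 ± 0.13 (P = 0.0092, P-BH = 0.25). Of all 30 probes 4 were such DEP, against 2.04% of all tested probes: CSF1R O6058, VSIG4 A_72_P157646 and A_72_P643751, and C1QA O11770. On the HF diet the median was -0.05 and none of the 30 was a DEP, against 1.78% of all tested probes with lower signal.

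C1QA gave -0.33 ± 0.13 on the LF diet and -0.04 ± 0.13 on the HF diet, and VSIG4 gave -0.29 ± 0.11 and -0.10 ± 0.11. CD5L gave 0.19 ± 0.09 on the LF diet and 0.04 ± 0.09 on the HF diet. The second SIGLEC1 probe went the other way, with -0.11 ± 0.15 on the LF diet and -0.40 ± 0.15 on the HF diet (P = 0.012, P-BH = 0.32). So did VSIG4 O11980, of uncertain strand, with -0.03 ± 0.12 on the LF diet and -0.18 ± 0.12 on the HF diet. The difference between diets did not pass its own test for any marker. None of the 30 probes was a DEP for the interaction, against 0.376% of all tested probes, and the smallest interaction P was 0.11, for C1QA.

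**Figure D3:**
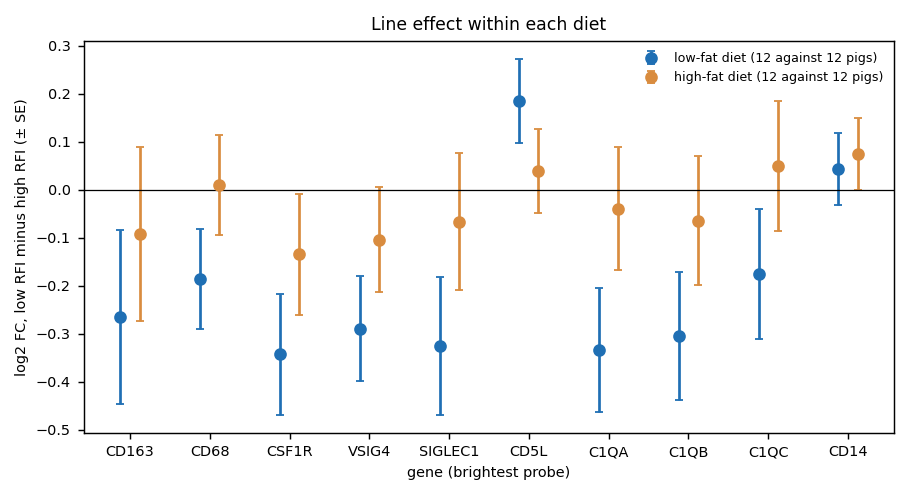
Log2 fold change of low RFI against high RFI pigs for the representative probe of each gene, on the low-fat and on the high-fat diet, with standard errors over 12 against 12 pigs. The low-fat values lie further from 0 than the high-fat values for every gene but CD14.

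Diet called none of the 30 probes, where 4.61% of all tested probes were DEP in either direction and 0.455% had a P-BH under 0.05. The log2 FC of HF against LF pigs was above 0 for 8 of the 10 representative probes and below 0 for CD68 and CD5L, with a median of 0.12, beside -0.01 over all tested probes. Over all 12440 named genes, 5514 lay above 0. At an unadjusted P under 0.05, 3 of 30 probes were higher with the HF diet, all of VSIG4, against 6.24% of all tested probes.

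VSIG4 ranged from 3.85 to 4.90 (median 4.31) in HF pigs and from 3.40 to 4.59 (median 4.21) in LF pigs. Its log2 FC was 0.18 ± 0.08 (P = 0.022, P-BH = 0.26). The VSIG4 probes ranged from 0.03 to 0.20, and their average gave 0.13 (P = 0.069 by limma). CD163 had the same size of difference in its representative probe with more spread, 0.18 ± 0.13 (P = 0.16). This was the largest value of the CD163 probes, which began at 0.06. The 3 further CD163 antigen probes ran from -0.09 to 0.11. CD68 was at -0.16 ± 0.07 (P = 0.036) and CD5L at -0.10 ± 0.06 (P = 0.096). The remaining 6 lay between 0.04 and 0.14.

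Lists for other cells stood away from 0 for diet as well. All 7 cholangiocyte genes were above 0 with a median log2 FC of 0.22, and their mean signal ran from -1.20 to 0.09 in HF pigs and from -1.44 to -0.21 in LF pigs. Of 16 pan-myeloid genes 15 were above 0, with a median of 0.09 and a mean signal of 2.03 to 2.75 in HF and of 1.88 to 2.85 in LF pigs. All 7 erythroid and platelet genes were below 0 with a median of -0.12, their mean signal running from -0.18 to 1.11 in HF and from 0.12 to 1.16 in LF pigs. All 8 hepatocyte genes were below 0 with a median of -0.10, which was 0.0015 after quantile normalization, and their mean signal ran from 9.38 to 10.01 in HF and from 9.55 to 10.06 in LF pigs. No gene of these 4 lists was a DEP for diet and the diets overlapped in each. Their part in the diet values of the markers was not tested.

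The diet values of part of the markers lay further from 0 on scan day 1, but no difference between days passed its test. The 48 arrays were on 6 slides with 2 pigs of each group on each, and slides were scanned on 2 days, 24 arrays a day. On day 1 the log2 FC for diet was 0.38 for CD163 (P = 0.0049), 0.32 for C1QC, 0.28 for VSIG4, 0.27 for C1QB and 0.25 for C1QA. On day 2 it was -0.02, -0.04, 0.08, -0.03 and 0.00 for these genes. CSF1R, SIGLEC1 and CD14 were also further from 0 on day 1 (0.15, 0.18 and 0.12) than on day 2 (0.03, 0.06 and -0.05). CD68 (-0.14 and -0.18) and CD5L (-0.10 and -0.11) were not. The test of the difference between days gave P = 0.064 at the least, for C1QC, with a P-BH of 0.9997. The line values were -0.19 on day 1 and -0.20 on day 2 for VSIG4, -0.25 and -0.23 for CSF1R, and -0.19 and -0.18 for C1QA. They lay further apart for CD68 (0.02 and -0.20), CD14 (0.12 and 0.00) and CD5L (0.16 and 0.07), and the smallest P of the difference between days for line was 0.13, for CD68.

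Across pigs the markers fell into those that moved together and those that did not. With the mean of each group removed, Pearson's r was computed for all 45 pairs of representative probes over 48 pigs. The median r was 0.56. A total of 28 pairs passed a permutation test of r with P-BH under 0.05 over the 45 pairs, all of them positive.

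The C1q chains correlated closely, C1QA with C1QB at r = 0.90 (rho = 0.91), C1QB with C1QC at r = 0.84 (rho = 0.87) and C1QA with C1QC at r = 0.84 (rho = 0.83). Each gave a permutation P of 1e-05, the smallest that 100000 permutations can give, and P-BH = 2.4e-05 for r. Without the 2 pigs farthest from the median of the first gene, r was 0.89, 0.88 and 0.82. VSIG4 followed C1QB at r = 0.83 (rho = 0.84, 0.80 without 2 pigs) and CD163 followed C1QA at r = 0.83 (rho = 0.80, 0.79 without 2 pigs). CD163 with VSIG4 gave r = 0.80 (rho = 0.84, 0.84 without 2 pigs), and these pairs had the same P. The order of the pairs below C1QA with C1QB depended on the measure.

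Among the 21 pairs of the C1q chains, VSIG4, CD163, CSF1R and SIGLEC1, r ran from 0.45, for CD163 with SIGLEC1, to 0.90, with a median of 0.76. These 7 genes were grouped after their values were seen. In 11 pigs all 7 lay above the mean of their group and in 13 pigs all 7 lay below it. CD68, dim as it was, had a median r of 0.48 with the others and passed with 6 of 9.

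CD5L and CD14 did not follow the rest. CD5L had a median r of -0.10 with the other markers and CD14 of -0.09, and each passed with 1 of 9, which was the other: CD5L with CD14 gave r = 0.32 (permutation P = 0.023, P-BH = 0.037) but rho = 0.30 (P = 0.039, P-BH = 0.060) and r = 0.23 without 2 pigs. The most negative value was that of SIGLEC1 with CD14, r = -0.30 (P = 0.040, P-BH = 0.060). The probes of each of these genes agreed among themselves. The other 4 CD5L probes correlated with the representative one at 0.75 to 0.94 and the other 2 CD14 probes at 0.74 and 0.92.

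Over all 8 probe pairs with shared sequence, r between the spots lay between 0.88 and 0.99. The median of the 45 r values was 0.49 on scan day 1 and 0.47 on scan day 2, and within the 4 groups it lay between 0.42 and 0.56.

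**Figure D4:**
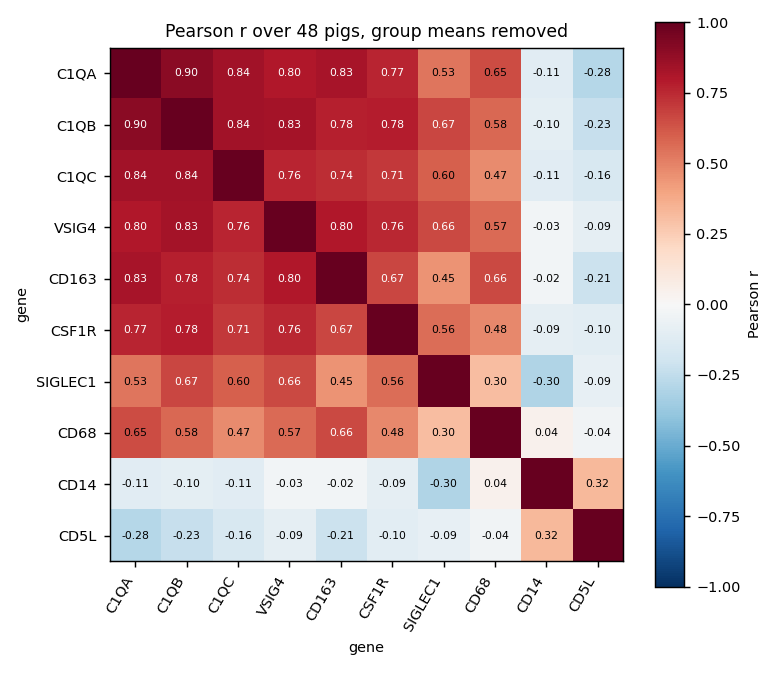
Pearson r between the representative probes of each pair of genes over 48 pigs with group means removed. The upper left block, from C1QA to SIGLEC1, runs from 0.45 to 0.90, whereas CD14 and CD5L lie between -0.30 and 0.32 with every gene.

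**Figure D5:**
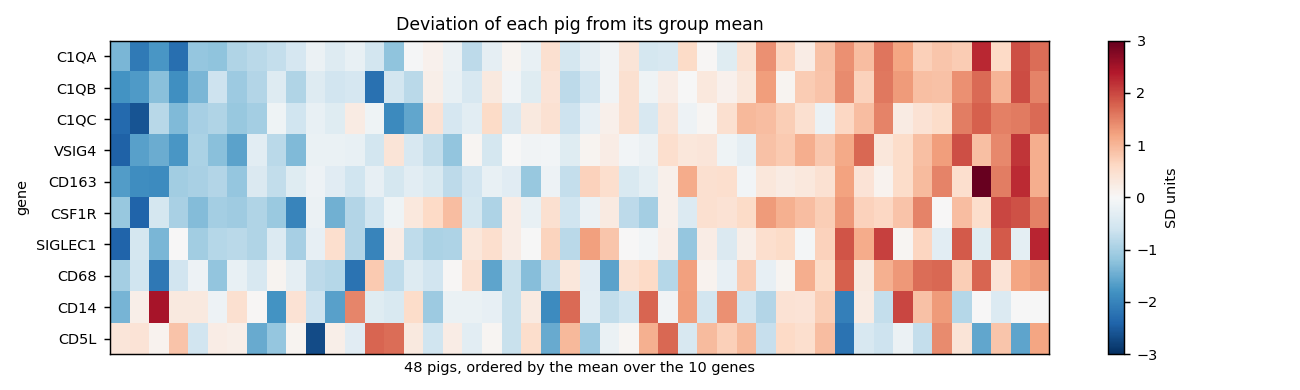
Deviation of each of the 48 pigs (columns, ordered by the mean over the 10 genes) from its group mean, in SD units of each gene. The upper rows change together from left to right, and the CD14 and CD5L rows do not follow them.

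Other genes that ran with the markers included several leukocyte genes. Over 12430 other named genes, the 10 whose group-centred signal correlated best with the mean of the 10 markers (scaled to equal SD) included LOC100157985 (r = 0.85), NCF4 (0.83), LOC100522571 (0.82), C1QTNF2 (0.82), LOC100049692 (0.81), SH3BGRL (0.80), HCLS1 (0.80), TLR4 (0.80) and AXL (0.79). NCF4 is a subunit of the phagocyte NADPH oxidase and HCLS1 is a haematopoietic signalling protein. TLR4 is the lipopolysaccharide receptor and AXL is a receptor of the family that recognises dying cells. The LOC entries have only a locus number for a name, and they, C1QTNF2 and SH3BGRL were not assigned to a cell type. Over all other genes the median r was 0.01. For 16 measured pan-myeloid genes, such as ITGB2, FCER1G and CD53, it was 0.68. For genes of Kupffer cell residency it was 0.29, beside 0.33 for endothelial and 0.32 for T and NK cell genes. The other lists lay between -0.38, for cholangiocyte genes, and 0.31, for classical complement, with hepatocyte genes at -0.30.

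The neighbouring gene lists were read in the same way, by the representative probe. Over all 12440 named genes, 3.42% were DEP with lower and 3.59% with higher signal in low RFI pigs, and 4.19% were DEP for diet. Of these genes 5820 lay below 0 for line. The lists had been chosen with earlier results of these data known, so their counts are descriptions.

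Pan-myeloid genes ran below 0 for line in 15 of 16, with a median log2 FC of -0.14, and 2 were DEP: the integrin subunit ITGB2 at -0.29 ± 0.10 (P = 0.0043, P-BH = 0.083) and the oxidase subunit NCF1 at -0.27 ± 0.09 (P = 0.0058, P-BH = 0.10). The mean log2 signal of the 16 ran from 1.88 to 2.75 in low RFI pigs (median 2.27) and from 2.12 to 2.85 in high RFI pigs (median 2.40), so the lines overlapped here too. The part of leukocytes other than macrophages in the marker values was not tested.

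Among genes tied to Kupffer cell residency, 7 of 12 were measured and none was a DEP for line, with a median of -0.07. CLEC4F, a lectin of Kupffer cells, gave -0.25 ± 0.11 (P = 0.022) and MERTK -0.27 ± 0.11 (P = 0.017). MERTK, which takes up dying cells, was a DEP for diet, higher with the HF diet by 0.36 ± 0.11 (P = 0.0019, P-BH = 0.11), from a dim probe. FOLR2, a folate receptor of resident macrophages, stood at 0.16 ± 0.11. Of 11 monocyte and neutrophil genes 1 was a DEP, the chemokine receptor CXCR2 (-0.20 ± 0.07, P = 0.0067), with a list median of -0.03. None of the 8 scavenger and Fc receptors (median -0.01), the 2 measured growth factor genes around CSF1R (-0.01), the 8 genes of haemoglobin clearance (-0.03) and the 8 lysosomal genes (-0.01) was a DEP for line or diet. Within these lists single genes stood on both sides of 0 for line. The scavenger receptor gene MRC1 gave 0.19 ± 0.08 (P = 0.026) and the lysosomal gene NPC2 0.15 ± 0.07 (P = 0.036). HMOX1, of haemoglobin clearance, gave -0.19 ± 0.08 (P = 0.021).

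Around C1q and CD14, CFP, the properdin gene that stabilises the alternative pathway, was a DEP at -0.26 ± 0.08 (P = 0.0026, P-BH = 0.060), and its second probe gave -0.29 (P-BH = 0.040). The proteases that C1q activates, C1R and C1S, stood at -0.02 ± 0.04 (P = 0.72) and -0.02 ± 0.05 (P = 0.65), and the list of 10 had a median of -0.05. In lipopolysaccharide sensing, 10 of 12 genes were below 0 with a median of -0.11, and the single DEP went up: TRAF6, a signalling adaptor below TLR4, at 0.97 ± 0.19 (P = 5.1e-06, P-BH = 7.6e-04), with 0.18 (P-BH = 0.25) at its second, dimmer probe. The spread of the brighter TRAF6 probe differed between lines, with an SD of 0.31 in low RFI and 0.89 in high RFI pigs.

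The lists for other cells showed single calls. CD247, the T and NK cell receptor zeta chain, was lower in low RFI pigs (-0.28 ± 0.10, P = 0.0080, P-BH = 0.12) and higher with the HF diet (0.40 ± 0.10, P-BH = 0.049). It was the DEP for line among 11 lymphocyte genes, whose median was -0.07. Its 2 dimmer probes gave -0.32 (P-BH = 0.023) and -0.39 (P-BH = 0.014) for line, and 0.46 (P-BH = 0.012) and 0.42 (P-BH = 0.041) for diet. All 11 endothelial genes stood above 0 for line with a median of 0.17 (with the deposited values 1 of 10 lay below 0), and ERG was a DEP (0.19 ± 0.07, P = 0.0084). APOA1 was the hepatocyte DEP (0.15 ± 0.05, P = 0.0078, P-BH = 0.12). Its dimmer probes gave 0.19 (P-BH = 0.097), 0.21 (P-BH = 0.034) and 0.23 (P-BH = 0.017). KRT7 was the cholangiocyte DEP (-0.35 ± 0.12, P = 0.0065). The list medians for line were 0.05 in hepatocyte and -0.09 in cholangiocyte genes. No B cell (median -0.15), stellate (0.05), or erythroid and platelet gene (0.08) was a DEP. As a check of the tissue, the mean log2 signal of 8 hepatocyte genes lay between 9.38 and 10.1 above the array median in all pigs. The cell makeup of the samples was not measured.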

How the data were processed

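Scanner intensity files of 48 arrays were used. The authors extracted the intensity values with Agilent Feature Extraction 10.7.3.1, per the file headers (background-subtracted processed signal). The series table of deposited log2 values, median-centred by the authors in R 2.10.0, holds 37379 probes and served as an alternative. The genome build of the array is not given in the sources used here.

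Control spots were left out, 483 outlier spots were set missing, and no spot was saturated. A probe was kept (45236) if 12 or more arrays showed it well above background, and each array was centred on their median. The share of spots well above background ran from 65.8% to 77.2% of the array, and the number of arrays limits the precision. Groups came from the sample titles. limma 3.58.1 in R 4.3.3 fitted line, diet and their interaction in place of the plain ANOVA of the study. Correlations were computed in Python 3.11.15 and NumPy 2.4.6 with 100000 two-sided permutations. The fit was tested for the line effect alone, on simulated data with independent probes.

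Names came from the scanner files and from RefSeq tables (7062 probes by accession, 15689 by scanner name), and 32926 probes stayed unnamed. The representative probe of a gene was its brightest by mean log2 signal. Named in the text were the 10 markers, genes of the lists that were called, up to 4 a list, and the 10 genes most alike. Some items are not reported here. Genes without a call, the copies and the CD5L, CD14 and uncertain-strand probes were named after their values were seen. The markers and lists were chosen with earlier results of these data known. Alternatives covered background, normalization, filters, moderation, slide, scan day and probe choice.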

Additional observations from a re-analysis of the deposited data

How the results depend on the processing

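The line values of the 10 markers kept their sign in all 15 or 16 alternatives, except CD68 on scan day 1 alone (0.0245) and CD14 on scan day 2 alone (-0.00491). CSF1R became a DEP for line under centring on the 75th percentile, under normexp correction and with median signals, VSIG4 under quantile normalization (P = 0.0097), and C1QA when its 2 probes were averaged (P = 0.0054), so that the count of genes called for line went from 0 to 1 under each of these 5. Over all 45236 tested probes, 3125 were DEP for line in the main fit. There were 3099 with 75th percentile centring, 2519 with normexp correction, 2809 with median signals and 3169 with quantile normalization. With the 3 probes of uncertain strand left out (chosen with the data in view) no averaged gene was called. In day 1 alone 0 and in day 2 alone 1 of the 30 probes were DEP for line, where all tested probes gave 1738 and 1636 DEP. For diet, day 1 alone called CD163 (1 gene and 3 probes, with 807 DEP in all), and day 2 alone had 934 DEP in all and turned the sign of CD163 (-0.0165), C1QB (-0.0315), C1QC (-0.0418) and CD14 (-0.0501). The median r over the pairs was 0.41 with the deposited log2 values, which hold 9 of the 10 genes and lack CSF1R. It was 0.50 for the same 36 pairs from the scanner values, and 0.48 with averaged probes of all 10 genes. The single-day fits rest on 24 arrays. Of the 16 other gene lists 1, scavenger and Fc receptors, turned the sign of its median for line under another scaling, a check added with the data in view (0.0023 with the deposited values), and 3 did so for diet (scavenger and Fc receptors 0.018 with the deposited values, and haemoglobin clearance 0.043 and hepatocyte genes 0.0015 after quantile normalization). The titles number every pig differently. No paired analysis was possible because the groups share no replicate numbers. With slide as a block, 0 genes and 3 of the 30 probes were DEP for line and 0 for diet. All 45236 tested probes gave 3257 DEP for line and 2293 for diet in that fit. Dim signal limits CD68, MERTK and NCF1. Copies of a probe are spots on the same array and share the RNA of the pig.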
